A study of Mus musculus with 4 samples.

Results

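Of the 50821 features listed in the mouse ovary tables, 136 carried a NONMMUG identifier, the prefix used by the NONCODE database for mouse non-coding genes, together with 10 or more transcripts and an FPKM above a set minimum. They were chosen by the number of transcripts and by the measured FPKM and counts, after joining the 4 tables on the gene identifier and counting a missing row as 0. Of 371 NONMMUG features with 10 or more transcripts, 138 reached an FPKM of 0.5 or more in at least 2 of the 4 libraries, and 233 stayed below that level. FPKM is the number of fragments per kilobase of feature length, scaled to the library total. All 138 had counts in both groups, and 2 of them were left out by identifier. RNA came from whole ovaries of 3-day-old mice (2 libraries) and from ovaries isolated at the same age and then kept in vitro for 8 days (2 libraries). The labels place the first group before and the second after follicle initiation, assessed by histological staining. No strain, allele or added agent is given, and the labels leave out how many animals stand behind a library. P-values here compare libraries, whose spread may be technical.

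Primordial follicles, each a small oocyte enclosed by flat somatic cells, form the resting store of the ovary, and their initiation is the step at which they start to grow. Long non-coding RNAs (lncRNAs) are transcripts that are not translated into protein, and many of their genes yield several transcripts through alternative splicing and alternative start and end sites. A gene-level estimate adds up the reads of all these transcripts. The deposited length of such a gene, in bases, is taken here as a mean over its transcripts, weighted per library. This reading is drawn from the values. In these tables the list of transcripts was the same in every library for every feature (0 differed), and no feature with 1 transcript had a length that was not a whole number. All 136 genes (100%) had one in at least 1 library, while the list of transcripts stayed the same. No label or header says how the lengths were computed. The identifiers come without gene symbols, and 0 of the 136 identifiers occurred in the mouse gene, promoter and miRNA tables at hand. The genes are therefore described by identifier, without sequence, position or known function.

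The estimated counts summed to between 18215834 and 26566784 per library. Cultured library 1 stood apart with 11211 features at FPKM 0.5 or more, against 6991 to 7334 in the others, and 124 of the 136 genes reached that level in it, against 112 to 121. Markers of oocytes, granulosa cells and other ovarian cells could not be read from tables without symbols, so the labelled tissue was not checked. In whole ovaries, fewer cells of a type and less RNA per cell cannot be told apart. The cultured ovaries were also older by the days in culture, and age and culture cannot be told apart either.

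The number of transcripts and the expression level chose these genes, so neither is a finding. The 136 genes listed 2305 transcripts in all, with a median of 13 per gene and a maximum of 111. From 10 to 14 transcripts were listed for 79 genes, 15 to 19 for 31 and 20 or more for 26. At the lower edge, 26 genes had exactly 10 transcripts, the most abundant of them being NONMMUG043532.2 with a mean FPKM of 37.6. Just outside, the most abundant feature with 9 transcripts was NONMMUG020673.2, with a mean FPKM of 15.4. On the side of expression, NONMMUG041226.2 was the lowest inside with a second-highest FPKM of 0.5, and NONMMUG020552.2 the highest outside with 0.48. Mean FPKM over the 4 libraries ran from 0.343 to 228.5, with 16 genes at 10 or more, 66 from 1 to under 10, and 54 under 1. All 136 were listed in all 4 libraries. Their counts were often fractional: 24.6% of the 136 genes' counts were whole numbers as printed, against 47.1% for NONMMUG features with 1 transcript that passed the same level. No gene of the 136 had counts within 10% of those of another feature of like length (within 1%) in every library.

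Together the genes held 0.228% and 0.231% of the counts at day 3 (95% Wilson intervals 0.226 to 0.230% and 0.229 to 0.233%, counting error only). After culture they held 0.329% and 0.283% (intervals 0.326 to 0.331% and 0.281 to 0.286%). Outside the 10 features with the most counts in the series, the order turned, with 2.41% and 2.38% at day 3 and 2.02% and 2.16% after culture. The first shares are of the sum over listed features, 26566784 and 26324839 at day 3 and 20939363 and 18215834 after culture. The 136 genes' own counts were 60527 and 60821 at day 3 and 68805 and 51563 after culture, and these overlapped. Library totals recovered from FPKM were larger, at 49290170 and 49187482 against 44343327 and 41416709. The 5 genes with the highest mean FPKM took 40.9% and 33.3% of the 136 genes' counts at day 3 and 27.0% and 30.5% after culture. Their median FPKM was 1.52 and 1.60 at day 3 against 1.93 and 1.45 after culture, so the groups overlapped.

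The most abundant gene, NONMMUG002215.2 with 24 transcripts, had FPKM 232.5 and 224.5 at day 3 against 254.5 and 202.8 after culture. Both cultured values lay outside the day 3 pair, on opposite sides, and the gene was not called (fitted log2 change -0.21, SE 0.40, edgeR adjusted p = 0.773). NONMMUG018329.2, with 15 transcripts, varied more between libraries of a group than between groups. Its FPKM was 219.2 and 88.1 at day 3 against 97.3 and 152.0 after culture (fitted log2 change -0.56, SE 0.51, edgeR adjusted p = 0.515). NONMMUG009968.2, with 26 transcripts, had FPKM 74.9 and 78.8 at day 3 against 25.2 and 16.1 after culture. Both cultured libraries lay far below both day 3 libraries, and the gene fell 4.34-fold (fitted log2 change -2.12, SE 0.40, edgeR adjusted p = 0.00301). Without day 3 library 1 its adjusted p in edgeR was 0.0511, at a log2 fold change of -2.09.

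The genes with the most transcripts were not the most abundant. Across the 136 genes the rank correlation between transcript number and mean FPKM was weak (Spearman's rho 0.16, a description over genes that share the 4 libraries). By class, median mean FPKM was still 1.125 with 10 to 14 transcripts, 2.565 with 15 to 19 and 5.416 with 20 or more. NONMMUG001886.2, with 111 transcripts, had FPKM 0.88 and 2.01 at day 3 against 1.12 and 1.63 after culture, the cultured values lying between the day 3 ones. NONMMUG011411.2, with 83 transcripts, had FPKM 9.55 and 13.1 at day 3 against 24.1 and 19.4 after culture. Its groups did not overlap, but it was not called (fitted log2 change 0.70, SE 0.38, edgeR adjusted p = 0.249). NONMMUG020347.2, with 57 transcripts, had FPKM 0.68 and 1.18 at day 3 against 1.10 and 0.81 after culture, and its groups overlapped.

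**Figure D1:**
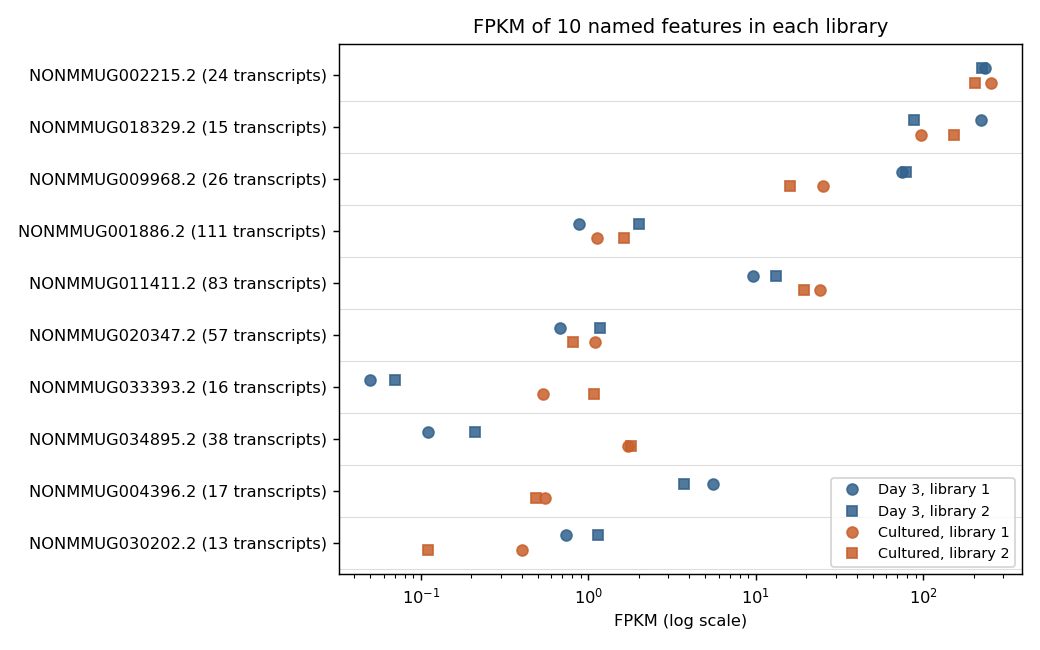
FPKM (horizontal log axis) of 10 named genes in each of the 4 libraries, with day 3 in blue, cultured in orange, library 1 as circles and library 2 as squares. NONMMUG033393.2 and NONMMUG034895.2 lie higher after culture, NONMMUG009968.2, NONMMUG004396.2 and NONMMUG030202.2 lie lower, and the day 3 and cultured values of NONMMUG002215.2 and NONMMUG018329.2 are intermingled.

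The next comparison asked which of the genes differed in abundance between day 3 and cultured ovaries. Of the 136, 11 rose, 14 fell and 111 were not called (edgeR quasi-likelihood test on rounded expected counts with trimmed-mean, or TMM, scaling, two-sided, Benjamini-Hochberg adjustment over 8557 features, adjusted p below 0.05). That is 8.09% higher and 10.3% lower, beside 5.87% and 8.5% of all features tested, or 18.4% changed beside 14.4%. The median log2 fold change was 0.01 over the 136 genes and 0.08 over all features tested. FPKM of the groups did not overlap for 57 genes that were higher and 34 that were lower, 66.9% together, beside 37.9% higher, 18.8% lower and 56.7% together over all features. The level rule itself fixed this for 19 of the 57 and 7 of the 34, which reached FPKM 0.5 in the libraries of 1 group only. For how many of all features it was fixed was not computed, so these shares are no finding about the genes. The 11 rises ran from 1.28 to 3.69 on the log2 scale (median 1.95), and 5 of them were of 4-fold or more. The 14 falls ran from -1.19 to -3.89 (median -2.33), of which 10 were of 4-fold or more. The level rule had a part in these counts: 7 of the 11 rises reached FPKM 0.5 only in the cultured libraries and 5 of the 14 falls only in the day 3 libraries, so these 12 genes were admitted through the group in which they are high. They are all of the called genes with a mean FPKM under 1, and neither their direction nor their size is a finding. The ranges and medians above include them. The other 13 called genes, 4 rises and 9 falls, were among 110 genes that reached FPKM 0.5 in both groups. Those 4 rises were of 2.47, 1.95, 1.78 and 1.28 on the log2 scale, and the 9 falls ran from -1.19 to -3.89. The share called among all features that reached it in both groups was not computed.

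The numbers of called genes moved with scaling, and fits without each library in turn were also made. A fit without 1 library sets 1 library against 2, takes the lone library to vary like the pair, and has fewer libraries to test with. Medians are therefore given for these fits in place of calls. Without day 3 library 1 the median log2 fold change was 0.11 over the 136 genes and 0.09 over all features tested. With day 3 library 2 left out the medians were 0.09 and 0.11. Leaving out cultured library 1 gave 0.09 and -0.03, and leaving out cultured library 2 gave -0.06 and 0.02. Using the totals recovered from FPKM as library sizes, in place of TMM, moved the median of all features to 0.45 and that of the 136 genes to 0.40. On that scale 9 genes rose and 8 fell, beside 4.85% and 3.14% of all features, and these 17 were among the 25 called with TMM. Of the genes with a mean FPKM of at least 1, 4 rose and 5 fell on that scale.

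**Figure D2:**
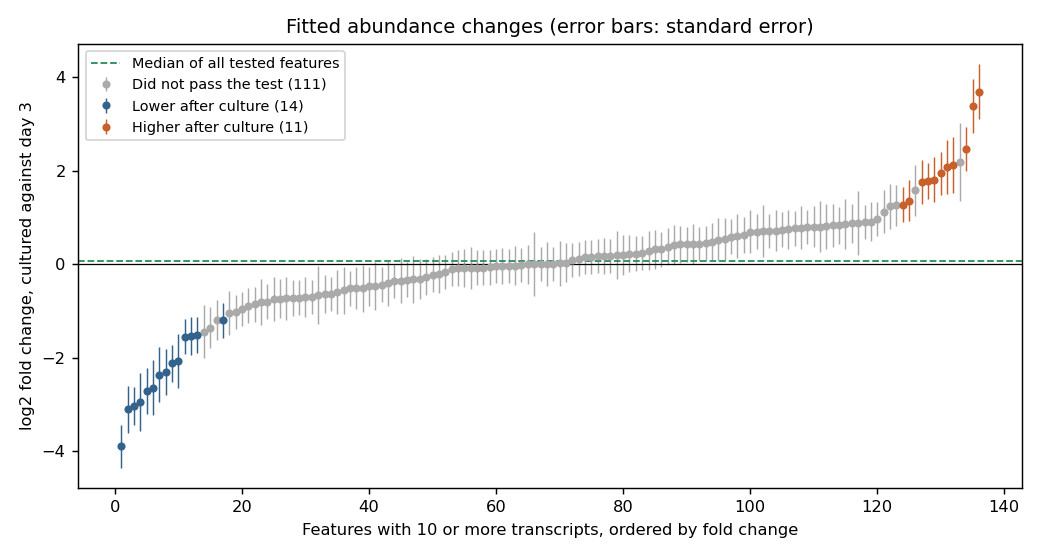
Fitted log2 fold change of each of the 136 genes (vertical axis, cultured against day 3, with its standard error), ordered from the largest fall to the largest rise. The 14 genes in blue fell, the 11 in orange rose, the 111 in grey did not pass the test, and the dashed line marks the median of all 8557 features, 0.08.

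The genes with the largest rises, NONMMUG033393.2 and NONMMUG034895.2, reached FPKM 0.5 only after culture, so a low day 3 level is part of how they came to be members. NONMMUG033393.2, with 16 transcripts, had 6 and 7 counts at day 3 and 68 and 107 after culture, or FPKM 0.05 and 0.07 against 0.54 and 1.08. It rose 12.9-fold (fitted log2 change 3.69, SE 0.59, edgeR adjusted p = 0.00104). NONMMUG034895.2, with 38 transcripts, had FPKM 0.11 and 0.21 at day 3 against 1.72 and 1.80 after culture, and rose 10.4-fold (fitted log2 change 3.38, SE 0.58, edgeR adjusted p = 0.00170). In both genes every cultured library lay above every day 3 library, but the level rule fixed this order when it admitted them. Among genes of higher abundance, NONMMUG001184.2, the fourth by mean FPKM and named after its values were seen, had FPKM 5.76 and 17.4 at day 3 against 91.8 and 68.0 after culture. The day 3 libraries differed from each other by much, yet both lay below the cultured ones (fitted log2 change 2.47, SE 0.47, edgeR adjusted p = 0.00289).

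NONMMUG004396.2, with 17 transcripts, fell the most among the 136 genes. Its counts were 396 and 296 at day 3 and 22.7 and 27.5 after culture, with FPKM 5.52 and 3.70 against 0.55 and 0.49. The fall was 14.8-fold (fitted log2 change -3.89, SE 0.46, edgeR adjusted p = 0.000136). NONMMUG030202.2, with 13 transcripts, had counts of 62.4 and 106 at day 3 and 14.8 and 6.95 after culture, and fell 8.59-fold (fitted log2 change -3.10, SE 0.51, edgeR adjusted p = 0.00120). It reached FPKM 0.5 only in the day 3 libraries, so its low cultured level is part of how it came to be a member. Its FPKM of 0.74 and 1.14 against 0.40 and 0.11 showed a smaller difference, and limma on log2(FPKM + 0.5) did not call it (adjusted p = 0.0913). NONMMUG009962.2, the second most abundant of the genes that fell and named after its values were seen, had FPKM 22.6 and 27.0 at day 3 against 4.15 and 2.06 after culture (fitted log2 change -3.03, SE 0.40, edgeR adjusted p = 0.000308).

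By number of transcripts, 4 genes rose and 8 fell among the 31 with 15 to 19, of which 3 and 4 were called with the totals behind FPKM. From 10 to 14 transcripts there were 4 rises and 4 falls among 79, and from 20 transcripts 3 rises and 2 falls among 26. These counts follow no order in the number of transcripts. With 15 to 19 transcripts, 6 of the 12 called genes reached the FPKM level only in the group in which they are high. Among the 23 of that class that reached it in both groups, 1 rose and 5 fell. The same counts were 1 and 2 among 63 with 10 to 14 transcripts, and 2 and 2 among 24 from 20 transcripts. Over all features tested, 5.87% rose and 8.5% fell. Neither these shares nor the counts below were split in this way. Among NONMMUG features tested with fewer transcripts, 25 of 333 with 5 to 9 rose and 27 fell, and 76 of 1498 with 2 to 4 rose and 122 fell. Of 5298 with 1 transcript, 325 rose and 246 fell. The difference between these classes was not tested. Median mean FPKM was 1.69 for the 136 genes, 1.10 with 5 to 9 transcripts, 1.001 with 2 to 4 and 0.903 with 1, so the classes also differ in depth. Within the 136 genes it was 1.125 with 10 to 14, 2.565 with 15 to 19 and 5.416 from 20, so those classes differ too.

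Mean length was not used in choosing the genes, and it was compared next. Averaged over the 4 libraries it ran from 503.3 to 5383 bases per gene, with a median of 1645 bases. The median over the 136 genes was 1705 and 1686 bases in the day 3 libraries and 1760 and 1748 bases in the cultured libraries. That of tested NONMMUG features with 1 transcript, whose length cannot move, was between 1525 and 1527 bases in every library. Lengths were compared between groups for genes with at least 10 counts in every library, which left 126 of the 136. The other 10 include NONMMUG033393.2, NONMMUG034895.2 and NONMMUG030202.2. The fit by limma on log2 length took in 1813 features of the series with 2 or more transcripts whose length was not the same in every library.

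The length of a gene with many transcripts was a noisy measure, also between libraries of a group. Among the 126 genes the median size of the log2 difference was 0.107 between the day 3 libraries and 0.125 between the cultured libraries. The median size of the difference between the group means was 0.119. For NONMMUG features with 2 to 4 transcripts the same 3 medians were 0.0454, 0.0364 and 0.0340, and for those with 5 to 9 they were 0.116, 0.113 and 0.0902. A group mean averages 2 libraries and a within-group difference does not, so these sizes are not on equal terms. The ratio of the longest to the shortest value over the 4 libraries was at least 1.2 for 73 of the 126 genes, or 57.9%, beside 31.3% of all features in the fit. The spread was larger at low depth. With a mean count under 100 (49 genes) the within-group medians were 0.188 and 0.232, and with 300 or more (44 genes) they were 0.077 in both groups.

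**Figure D3:**
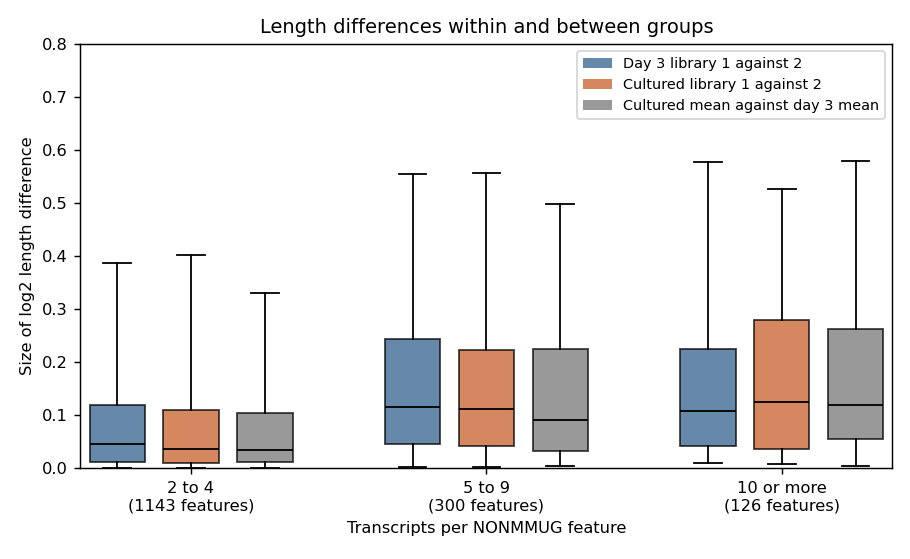
Size of the log2 difference in mean length between the day 3 libraries (blue), between the cultured libraries (orange) and between the group means (grey), for NONMMUG features with 2 to 4, 5 to 9 and 10 or more transcripts. Boxes show quartiles and medians and whiskers the 5th and 95th percentiles. With 10 or more transcripts the 3 medians are 0.107, 0.125 and 0.119.

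No gene of the 126 passed the test for a difference in mean length (limma, adjusted p below 0.05), and none of the 1813 features did (0%). How small a difference could pass with 2 libraries per group was not assessed. The smallest adjusted p among the 126 genes was 0.0864 (limma). At an unadjusted p below 0.05 there were 26 of the 126 or 20.6%, beside 11.4% of all features in the fit. These were 19 longer and 7 shorter after culture, beside 7.78% and 3.64% of all features. Without day 3 library 1 the numbers were 11 longer and 10 shorter, and without any other single library they ran from 14 to 18 longer and from 7 to 9 shorter. The same share was 14.7% with 5 to 9 transcripts and 9.01% with 2 to 4. Both cultured libraries lay above both day 3 libraries for 44 genes and below them for 17, or 34.9% and 13.5%, beside 24.1% and 17.2% of all features. A mean length at least 1.2-fold longer after culture was seen in 26 genes and at least 1.2-fold shorter in 6, or 20.6% and 4.76%, beside 7.94% and 3.42%. The median log2 length difference was 0.07 over the 126 genes and 0.00 over all 1813 features. Without day 3 library 1 it was 0.03, and this library had the lowest lengths, at a median of -0.0423 from the mean of the 4 libraries on the log2 scale. Day 3 library 2 was at -0.0107 and the cultured libraries at 0.0207 and 0.0244.

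The genes below had the smallest unadjusted p in each direction, and none of them was called. NONMMUG002816.2, with 18 transcripts, had a mean length of 1037 and 1023 bases at day 3 and 1486 and 1512 bases after culture. The 2 libraries of a group lay close to each other, while the group means were 1030 ± 9.90 and 1499 ± 18.5 bases (SD, n = 2 each), a gain of 45.5% (log2 difference 0.54, SE 0.02, limma adjusted p = 0.0864). Its counts were modest, from 95.03 to 163.5 per library. NONMMUG045607.2, with 23 transcripts and 499 to 709 counts per library, measured 1086 and 1047 bases at day 3 and 1292 and 1272 bases after culture (log2 difference 0.27, SE 0.02, limma adjusted p = 0.198). NONMMUG011294.2, with 17 transcripts, measured 1132 and 1198 bases at day 3 and 1753 and 1576 bases after culture (log2 difference 0.51, SE 0.08, limma adjusted p = 0.292). It also fell in abundance, from FPKM 3.79 and 3.23 to 0.31 and 0.59 (edgeR adjusted p = 0.00223), so its cultured lengths rest on 23.0 and 36.9 counts.

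In the other direction, NONMMUG011892.2, with 10 transcripts, measured 3367 and 3261 bases at day 3 and 2731 and 2646 bases after culture, a log2 difference of -0.30 (SE 0.03, limma adjusted p = 0.226). NONMMUG044868.2, with 36 transcripts and 1048 to 2035 counts per library, measured 3535 and 3660 bases at day 3 and 3103 and 3160 bases after culture, a log2 difference of -0.20 (SE 0.02, limma adjusted p = 0.253). NONMMUG045501.2, with 11 transcripts, measured 1506 and 1729 bases at day 3 and 1091 and 1176 bases after culture (log2 difference -0.51, SE 0.10, limma adjusted p = 0.350), the largest loss among the 126. In all 6 genes the groups did not overlap, which choosing them by the smallest p favours. The same held for 48.4% of the 126 and for 41.3% of all features in the fit. The largest gain, in NONMMUG008625.2 with 10 transcripts, was named after its values were seen. It measured 966.5 and 956.2 bases at day 3 and 2073 and 1461 bases after culture, the cultured libraries being far apart (log2 difference 0.86, SE 0.21, limma adjusted p = 0.392).

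**Figure D4:**
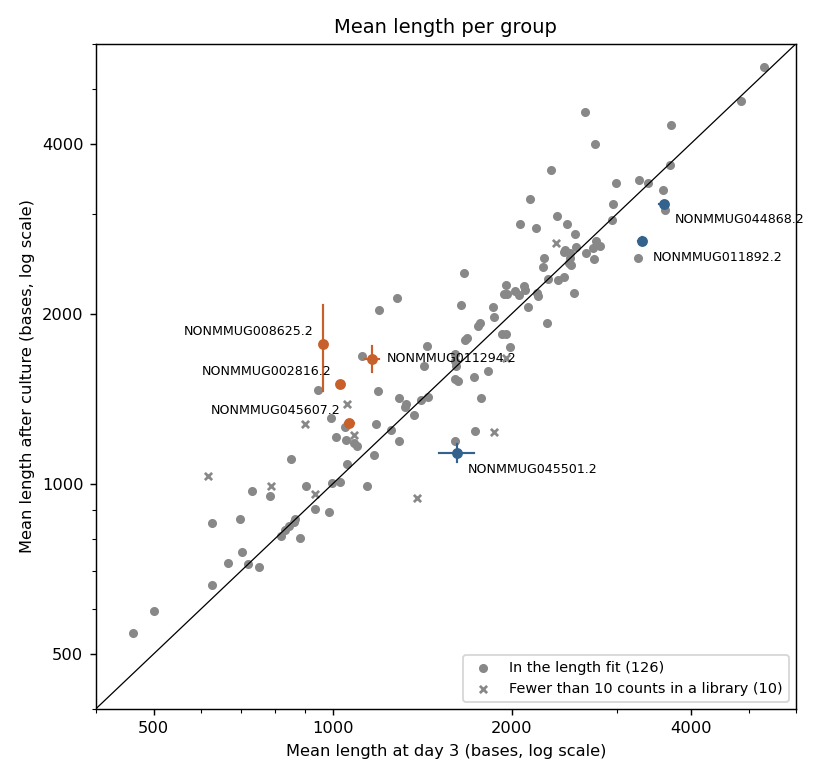
Mean length of the 136 genes at day 3 (horizontal) and after culture (vertical), in bases on log axes, each point the mean of 2 libraries, with the line of equal length. Coloured genes are the 3 longer and 3 shorter with the smallest unadjusted p, and NONMMUG008625.2, with bars from library to library. Crosses are the 10 genes with fewer than 10 counts in a library.

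The most abundant genes differed in how steady their length was. NONMMUG018329.2 had 827.1 and 836.8 bases at day 3 and 831.1 and 826.3 bases after culture, while its FPKM varied over a wide range. NONMMUG015741.2, with 20 transcripts and a mean FPKM of 28.0, differed in length by 0.154% between the groups, at 2508 ± 3.09 and 2512 ± 1.15 bases (SD, n = 2 each). NONMMUG002215.2 measured 705.9 and 701.1 bases at day 3 and 739.8 and 773.7 bases after culture (log2 difference 0.11, SE 0.03, limma adjusted p = 0.402). NONMMUG009968.2 measured 2002 and 1930 bases at day 3 and 2143 and 2185 bases after culture (log2 difference 0.14, SE 0.03, limma adjusted p = 0.350). The gene with the most transcripts, NONMMUG001886.2, measured 754.4 and 750.6 bases at day 3 and 766.6 and 658.1 bases after culture, and its groups overlapped.

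Since FPKM divides the count by the length, a gene whose mean length differed gave unlike ratios by count and by FPKM. For NONMMUG008625.2 the log2 ratio of cultured to day 3 means was -0.31 by counts scaled to the totals behind FPKM and -1.28 by FPKM. For NONMMUG002816.2 the same ratio was 0.55 by counts and -0.02 by FPKM, so that a gene with more counts after culture had nearly the same FPKM, at 2.11 ± 0.0283 and 2.08 ± 0.707 (SD, n = 2 each). For NONMMUG030202.2, whose mean length was 1869 ± 123.4 bases at day 3 and 1236 ± 478.8 bases after culture (SD, n = 2 each), it was -2.77 by counts and -1.88 by FPKM. NONMMUG015741.2, of steady length, had 0.997 by counts and 0.992 by FPKM.

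Of the 17 genes that changed in abundance and had a length value in the fit, 5 also had an unadjusted p below 0.05 for length, 4 of them lower and 1 higher in abundance. Among the 10 that fell, cultured lengths lay above the day 3 lengths in 5 and below them in 3. Among the 7 that rose, they lay above in 2 and below in 0. For the 109 genes that were not called in abundance, the counts were 37 above and 14 below. Of all 1813 features in the length fit, 24.1% lay above and 17.2% below, and 11.4% had an unadjusted p below 0.05 (limma). Whether changes in length and abundance go together was not tested.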

How the data were processed

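Whole ovary RNA was made into stranded TruSeq libraries and read in pairs on an Illumina sequencer, per the labels' protocols. HISAT, Cufflinks and build mm9 are named, without versions or roles, in the submitters' processing notes. Which tool counted the reads is not stated there. Per the file headers, each deposited table holds 3 values per feature, all made by the authors: the expected count, FPKM and length. The deposited FPKM values are scaled by the authors to length and library total. Members and comparisons were chosen with earlier results of these data known.

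Expected counts were rounded and tested with edgeR 4.0.16 (R 4.3.3; TMM; quasi-likelihood F test) over the 8557 features that reached FPKM 0.5 in 2 libraries or more. The SE is the log2 fold change divided by the square root of F. Log2 mean lengths were fitted with limma 3.58.1, the spread trended on the mean count. Both fits were run on simulated data as a check of the code. The simulated length shifts were far larger than the spread within a group, so that run does not show how small a length difference could pass. Library totals behind FPKM came from the slope of count over FPKM on length and ran from 41416709 to 49290170. Alternatives were DESeq2 1.42.0, limma on log2 FPKM with pseudocounts of 0.1, 0.5 and 1, other scalings and filters, a replicate block, and each library left out. Genes were named by rule: the 3 with the highest mean FPKM, the 3 with the most transcripts, the 2 largest called rises and 2 largest falls without overlap, the 3 longer and 3 shorter with the smallest p, and those at the edges of the rule.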

Additional observations from a re-analysis of the deposited data

How the results depend on the processing

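Depth limits both readouts: 54 of the 136 genes had a mean FPKM under 1, and 10 had too few counts for a length comparison. The main fit gave 11 genes higher and 14 lower, beside 502 and 727 of all 8557 features. Limma gave 6 higher and 10 lower at each pseudocount (0.1, 0.5 and 1). Over all features it gave 391 to 443 higher and 338 to 380 lower. A filter at FPKM 1 left 89 of the genes and gave 5 higher and 9 lower, beside 309 and 435 of all 4166 features. The library totals behind FPKM gave 8 lower, beside 269 of all 8557 features, and a median log2 fold change of 0.40. Limma with a pseudocount of 0.1 gave a median of 0.28, against 0.01 in the main fit. The scaling differs by construction. Leaving out each library in turn gave 4 to 8 higher, 7 to 18 lower and medians from -0.06 to 0.11. The median log2 length difference then ran from 0.0307 to 0.0770, against 0.0662. At least 50 counts in every library left 80 genes and gave 15 at an unadjusted p below 0.05 for length, against 26, since fewer genes were tested. Over all features it gave 116 of 1043. In each of the 12 alternatives for length, 0 genes were called, with 15 to 27 at an unadjusted p below 0.05. Among 148 values of the 10 genes named for abundance, 4 no longer passed and 0 changed direction after a call: NONMMUG009968.2 without day 3 library 1, and NONMMUG030202.2 in limma at each pseudocount. DESeq2 called 22 of the 25. No label says that replicate numbers pair libraries (r = -0.12 across features between deviations of same-numbered libraries). A replicate block gave 10 higher and 14 lower, and 24 at an unadjusted p below 0.05 for length. Over all features these numbers were 497, 707 and 171. A crossed replicate block, added after seeing the data, gave 10 and 13, and 24 for length, beside 409, 571 and 179 over all features. Robust empirical Bayes was also added after seeing the data.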

Other observations

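Some of the 136 genes have identifier numbers close to each other. Whether the numbers follow the order of genes in the genome was not analysed here, and the distance of 15 used below was chosen after values were seen. Of 12 pairs of neighbours in number, both genes fell in 3, 1 gene of the pair fell in 1, and neither passed the test in 8. Over all tested NONMMUG features, each paired with the next tested one within that distance, both fell in 49 of 5589 pairs, or 0.877%. The 12 pairs join a gene to the next of the 136, and other tested features may lie between them. The 2 kinds of pair are thus not on equal terms. Pairs can share a gene, and the difference between these shares was not tested. NONMMUG009962.2, NONMMUG009968.2 and NONMMUG009975.2 make up 2 of the 3 pairs, with fitted log2 changes of -3.03, -2.12 and -1.55 (edgeR adjusted p = 0.000308, 0.00301 and 0.0134). Scaled by the library totals behind FPKM, NONMMUG009975.2 did not pass (log2 fold change -1.22, edgeR adjusted p = 0.1005). Its FPKM was 4 and 4.99 at day 3 against 2.39 and 1.44 after culture. NONMMUG011294.2 and NONMMUG011295.2, with consecutive numbers, had fitted log2 changes of -2.71 and -2.64 (edgeR adjusted p = 0.00223 and 0.00882). Their FPKM at day 3 was 3.79 and 3.23 for the first and 1.83 and 1.62 for the second, and after culture 0.31 and 0.59, and 0.14 and 0.53. Whether neighbours share reads was not tested.

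NONMMUG031918.2 and NONMMUG031919.2, also consecutive, did not move together in fitted value (log2 fold changes -0.09 and 0.46, neither called).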
